A study of Mus musculus with 24 samples.

Results

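Undifferentiated mouse embryonic stem cells (ESCs) that lacked both Tet1 and Tet2 (double knockout, DKO) were compared with ESCs that lacked Tet2 alone (Tet2-/-), which asks what the further loss of Tet1 changes in Tet2-deficient cells. The comparison rests on 4 of the 24 libraries of the series, 2 of DKO and 2 of Tet2-/-, all at day 0 (D0). At D0, 3 wild-type (WT), 3 Tet1-/- and 2 triple-knockout (TKO, Tet1, Tet2 and Tet3 edited) libraries were also sequenced, and all genotypes were sequenced again after 6 days without leukemia inhibitory factor (LIF), the cytokine that holds ESCs in the pluripotent state (D6). All clones descend from 1 parental clone of a 129 derived ESC line with eGFP knocked in at Pou5f1, grown on gelatin without feeder cells, and at D0 with LIF. The knockouts were made by transfection of Cas9 and guide RNAs, followed by puromycin selection and isolation of clones, so each library stands for 1 clone.

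Tet enzymes are dioxygenases that oxidize the methyl group of methylated cytosine in DNA, a step toward its removal. Tet1 and Tet2 are the members of the family that ESCs express most. In ESCs, Tet1 is known to bind many CpG-rich promoters, while Tet2 is known to act more within gene bodies and at enhancers. Promoters of many germline genes are held silent in these cells by cytosine methylation.

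The edits were aimed at coding exons. The Tet1 guide matched a coding sequence in exon 5 of the 13-exon transcript of Tet1 (chr10:62267318-62361866), and the Tet2 guide one in exon 3 of the 11-exon transcript of Tet2 (chr3:133126643-133207354), both on the minus strand of mm9. The annotation (GENCODE vM1) holds the Tet1 site in the coding sequence of 3 of 7 transcripts and the Tet2 site in that of 2 of 2. The 2 sites are shown because the loss of Tet1 is the only designed difference between the groups, with the PAM, the motif that Cas9 needs beside its target, in capitals.
Tet1 guide site (mm9, chr10:62296293-62296315, minus strand): ggctgctgtcagggagctcaTGG
Tet2 guide site (mm9, chr3:133148617-133148639, minus strand): gaaagtgccaacagatatccAGG

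Transcripts of the edited genes were still counted. Tet1 stood at 349.8 and 217 CPM, a gene's counts relative to the TMM-adjusted total of its library, in the DKO libraries and at 429 and 420.2 CPM in Tet2-/-. The WT libraries had 408, 209 and 349 CPM and the Tet1-/- libraries 87.7, 117 and 335 CPM, so the DKO values lay within the WT range. The log2 fold change of DKO against Tet2-/- was -0.58 (SE 0.84, adjusted p = 0.640) in edgeR's quasi-likelihood test (p adjusted by Benjamini-Hochberg over all genes). Tet2 had 52.3 and 21.0 CPM in DKO against 19.6 and 21.6 CPM in Tet2-/-, where the 3 WT libraries had 88.9, 89.0 and 83.4 CPM. All 4 clones were below WT, and DKO replicate 1 was the highest of them, while DKO replicate 2 fell within the Tet2-/- range (log2 fold change of DKO against Tet2-/- 0.83, SE 0.54, adjusted p = 0.277). For Tet3 (chr6:83312367-83391672) the DKO libraries had 5.88 and 5.75 CPM and the Tet2-/- libraries 7.22 and 7.18 CPM, a log2 fold change of -0.31 (SE 0.24, adjusted p = 0.366). A short indel can leave a transcript that is counted, so RNA levels alone do not settle the genotype labels. Tet2 RNA was below WT in all 4 edited clones, whereas Tet1 RNA of DKO lay within the WT range, and the reason was not tested.

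The 4 libraries held 21729346 to 37290208 counts, which is also the range over the 12 D0 libraries, whose TMM factors were 0.973 to 1.02. Counts of a gene differed between the clones of a genotype by 9.20 (DKO) and 18.8 (Tet2-/-) times the sampling variance on average. This ratio grows with depth and does not rank the genotypes by spread. The common coefficient of variation beyond sampling (edgeR) was 0.0756 in DKO and 0.0760 in Tet2-/-. The summed level of 6 ESC markers (Pou5f1, Sox2, Nanog, Sall4, Zfp42, Esrrb) was 3751 to 4168 CPM over the 4 libraries. Of the 7 fibroblast feeder markers, Thy1 alone was above 2 CPM (26.2 and 26.8 CPM in DKO, 53.4 and 54.6 CPM in Tet2-/-), and Dcn was at 0 in all 4. Primitive endoderm markers summed to 6.63 and 6.90 CPM in DKO and 4.73 and 4.95 CPM in Tet2-/-, and trophectoderm markers to 1.17 and 1.02 against 0.441 and 0.490 CPM. Whether these low levels bear on any result was not tested.

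Many genes differed between the genotypes in both directions. Of 14456 genes tested, 462 were higher in DKO than in Tet2-/- (3.2%) and 457 were lower (3.16%), together 6.36%. A gene counts as called here when its adjusted p was under 0.05 and it changed by over 2-fold. The median log2 fold change was 1.66 among the genes called higher and -1.33 among those called lower, and 0.00 over all genes tested. Genes called higher were mostly of low abundance. Only 143 of the 462 reached 5 CPM in the higher group, compared with 307 of the 457 called lower, and 158 and 52 changed by more than 4-fold. The 2 DKO and 2 Tet2-/- levels did not overlap for any called gene, but this also held for 74.0% of all genes tested.

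**Figure D1:**
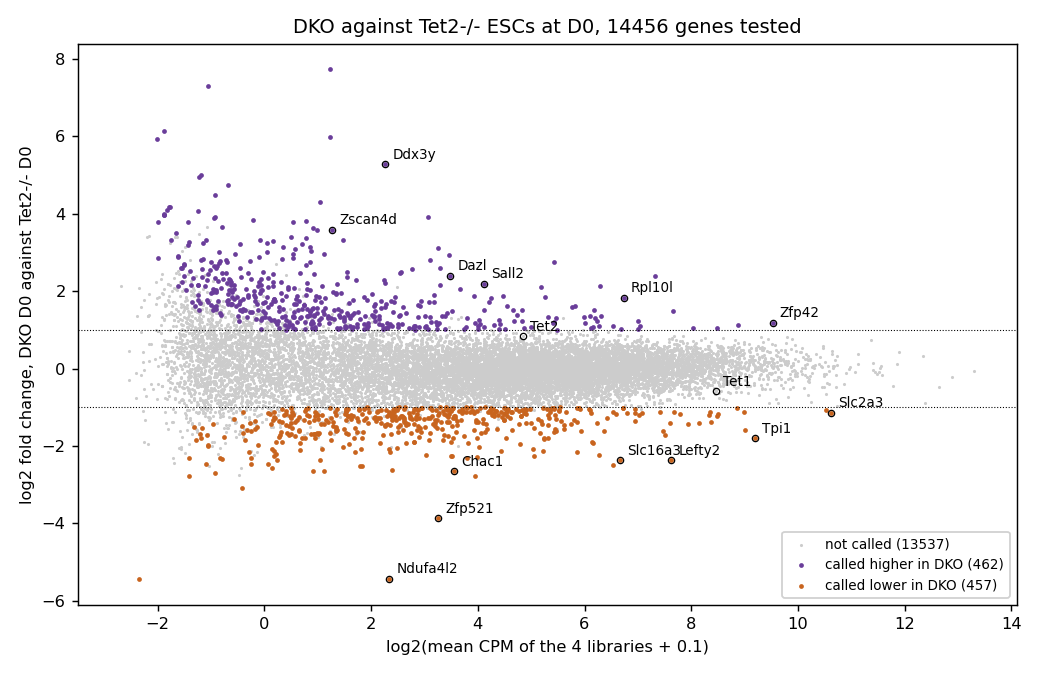
Each point is 1 of the 14456 genes tested, with its mean level over the 4 libraries on the x axis (log2 of CPM + 0.1) and its log2 fold change of DKO D0 against Tet2-/- D0 on the y axis, where dotted lines mark 2-fold. Points called higher in DKO (462, purple) gather at low levels, whereas those called lower (457, orange) reach genes of high abundance such as Slc2a3 and Tpi1.

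The number of calls depended on having 2 clones in each group. With 1 library left out, the fit called 92 genes higher and 53 lower (without DKO replicate 1), 156 and 117 (without DKO replicate 2), 92 and 79 (without Tet2-/- replicate 1) or 115 and 218 (without Tet2-/- replicate 2). A set of 99 genes was called in all 4 of these fits, and each of the other called genes lost its call in at least 1 of them. The fitted change of 819 to 866 of the 919 genes was still over 2-fold in each of these fits, and that of 699 in all 4. Of the genes described below, the set of 99 holds, for example, Dazl, Mov10l1, Rpl10l, Zscan4a, Zscan4b, Zscan4d, Sall2, Zfp42, Plac8, Ldhb, Pltp and Zfp521.

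Part of the germline genes rose in DKO. Of 25 tested members (26 in the table) of a list of germline genes known to be silenced by DNA methylation, 11 were called higher (3.2% of all genes tested were) and 0 lower, and the median log2 fold change of the list was 1.12 against 0.00 over all genes tested. Dazl, an RNA-binding protein of germ cells, had 15.3 and 21.8 CPM in the DKO libraries and 3.85 and 3.24 CPM in Tet2-/-. The lowest DKO clone thus lay well above both Tet2-/- clones, with a log2 fold change of 2.39 (SE 0.34, adjusted p = 0.00273). Mael, which takes part in silencing transposons through the piRNA pathway, stood at 15.8 and 17.3 CPM in DKO and 2.65 and 2.83 CPM in Tet2-/-, a log2 fold change of 2.59 (SE 0.43, adjusted p = 0.00430). For Mov10l1, a helicase needed for piRNA production, the levels were 27.8 and 23.3 against 9.42 and 8.62 CPM, a log2 fold change of 1.5 (SE 0.23, adjusted p = 0.00312). The clones of a genotype were close to each other for both of these genes.

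Rpl10l, a retrogene of a ribosomal protein that acts in spermatogenesis, was the most abundant of these by CPM, with 176 and 157 CPM in DKO against 43.7 and 49.7 CPM in Tet2-/- and a log2 fold change of 1.83 (SE 0.28, adjusted p = 0.00339). Reads from its parent gene could be shared with it. Synaptonemal complex genes Sycp1 (log2 fold change 1.02) and Sycp2 (2.64), the meiotic genes Hormad1 (1.69) and Smc1b (1.12), and Stk31 (1.62), Slc25a31 (2.13) and Taf7l (2.25) made up the rest, at DKO levels from 0.709 CPM (Sycp2, replicate 1) to 12.3 CPM (Stk31, replicate 2). Ddx4, a helicase of germ cells, passed the adjusted p but not the fold, with 47.9 and 40.0 CPM against 20.4 and 24.8 CPM and a log2 fold change of 0.96 (SE 0.21, adjusted p = 0.0122). Among the other members, Dnmt3l, which also serves the methyltransferases of ESCs, was lower by less than 2-fold, at -0.36 (adjusted p = 0.0463). With 1 library left out, 3 to 7 members were called, the fewest without Tet2-/- replicate 1.

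The promoters of these germline genes often held an E-box. RefSeq windows of 300 bases around the gene start (250 before, 50 after, GRCm38.p6) were at hand for 23 of the 25 tested members, and 13 of these (56.5%) held the E-box CACGTG, which reads alike on both strands, compared with 10.3% of the windows of all genes tested (10711 matched). Among the 11 called members 7 held it. The called members had 10 to 29 CG dinucleotides in a window, with a median of 22 against 21 over all genes tested, whereas all genes called higher had a median of 14 and all called lower 18. The windows of Mael and Mov10l1 are shown because both rose and both hold the motif, which is in capitals.
Mael promoter (GRCm38.p6, chr1:166238695-166238994, minus strand): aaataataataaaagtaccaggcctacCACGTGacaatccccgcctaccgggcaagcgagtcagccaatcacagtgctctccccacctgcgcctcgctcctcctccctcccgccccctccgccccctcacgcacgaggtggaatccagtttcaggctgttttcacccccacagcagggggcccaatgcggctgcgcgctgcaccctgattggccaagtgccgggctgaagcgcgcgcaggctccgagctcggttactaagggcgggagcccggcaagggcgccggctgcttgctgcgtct
Mov10l1 promoter (GRCm38.p6, chr15:88982744-88983043, plus strand): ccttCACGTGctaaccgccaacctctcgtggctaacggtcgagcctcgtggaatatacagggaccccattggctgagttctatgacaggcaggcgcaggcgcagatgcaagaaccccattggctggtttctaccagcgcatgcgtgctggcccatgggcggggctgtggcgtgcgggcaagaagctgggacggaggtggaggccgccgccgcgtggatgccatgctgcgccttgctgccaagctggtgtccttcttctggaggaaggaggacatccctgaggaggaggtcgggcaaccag

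Markers of the 2-cell-like state, a rare state of ESC cultures that resembles the early embryo, were also higher in DKO. Of its 15 counted members, 8 were tested, and all 8 were called (8 higher, 0 lower, median log2 fold change 3.72), but they passed the filter through the groups where they are high, so this count is a description only. Zscan4d, a zinc finger protein of this state, had 5.59 and 2.97 CPM in DKO and 0.281 and 0.408 CPM in Tet2-/-, a log2 fold change of 3.59 (SE 0.52, adjusted p = 0.00289). For Gm8300 the values were 3.55 and 3.1 against 0.0802 and 0.408 CPM, with a log2 fold change of 3.62 (SE 0.51, adjusted p = 0.00257). The remaining members, Zscan4a, Zscan4b, Zscan4c, Zscan4f, Tcstv1 and Tcstv3, lay between 0.371 and 3.55 CPM in DKO and between 0.0272 and 0.272 CPM in Tet2-/-. Most Tet2-/- values are a handful of counts, and reads of these near-identical copies may be split between them. DKO replicate 1 was above replicate 2 for all 8. In bulk RNA, more cells in this state and more RNA per such cell cannot be told apart. Without DKO replicate 1 or Tet2-/- replicate 1, 4 members were called.

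**Figure D2:**
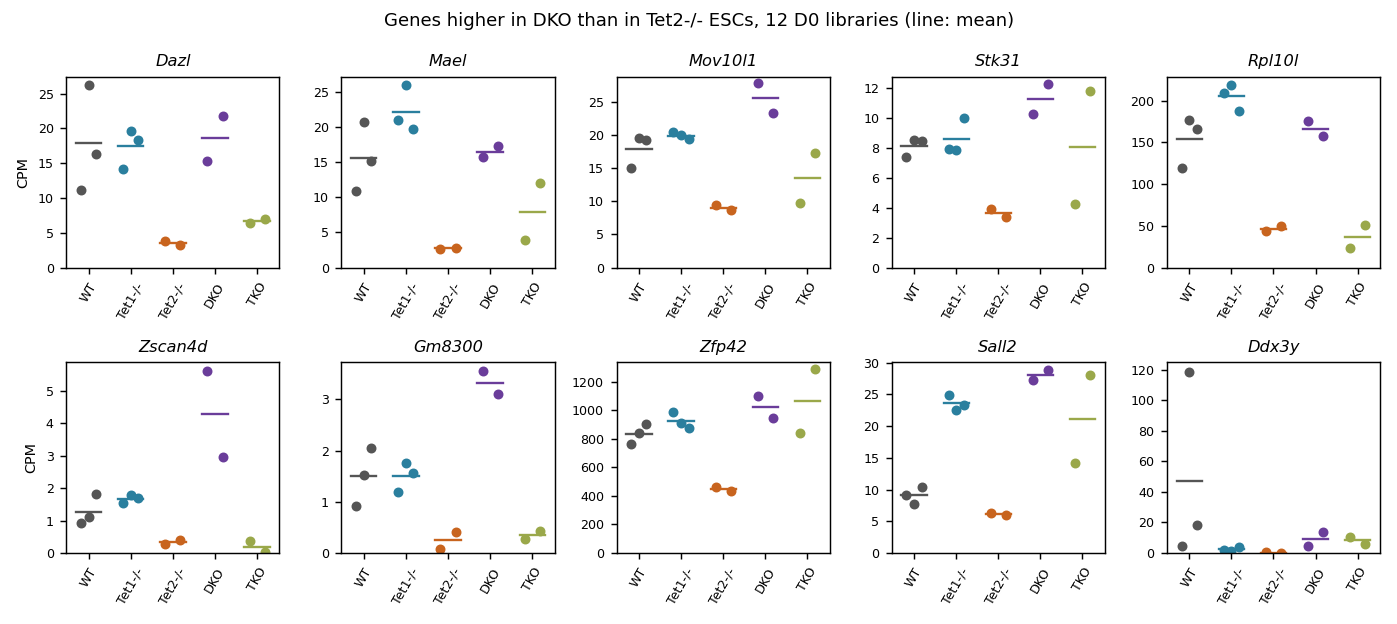
CPM of 10 genes that were called higher in DKO than in Tet2-/- (y axis, from 0) in the 12 D0 libraries, 1 point each, by genotype on the x axis, with a line at the mean. For Dazl, Mael, Mov10l1, Rpl10l and Zfp42 all WT and Tet1-/- points lie above both Tet2-/- points, and Ddx3y is highest in 1 WT library (119 CPM).

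Genes of the sex chromosomes were among the largest rises. Of 4 tested Y-linked genes, a group chosen after its values were seen, 3 were called higher. Ddx3y, a Y-linked RNA helicase, had 4.59 and 13.7 CPM in DKO and 0.321 and 0.163 CPM in Tet2-/- (log2 fold change 5.28, SE 1.57, adjusted p = 0.0356). Eif2s3y, a Y-linked translation factor, had 6.72 and 24.2 against 1.56 and 0.571 CPM (log2 fold change 3.92, SE 1.00, adjusted p = 0.0213). Both DKO clones lay above both Tet2-/- clones, but clones of 1 genotype also differed widely, and for Ddx3y the WT libraries had 4.74, 119 and 18.6 CPM. Uty, a Y-linked histone demethylase, followed the same order (2.34 and 6.53 against 0.120 and 0.0272 CPM). On the X chromosome, 8.01% of the tested genes were called higher, compared with 3.2% of all. Fmr1nb (14.4 and 19.2 against 2.49 and 1.44 CPM, log2 fold change 3.13) and the melanoma antigen gene Mageb16 (9.22 and 10.1 against 2.17 and 1.36 CPM, 2.48) were among them. The homeobox genes Rhox10 (5.21 and 4.26 against 1.08 and 0.789 CPM) and Rhox13 (3.63 and 3.8 against 1.56 and 1.03 CPM) were the 2 called of 5 tested Rhox genes (30 in the table), which are expressed in the reproductive tract. Of 5 tested Xlr genes, a group chosen after its values were seen, 3 were called higher, among them Xlr3a with 1.5 and 7.41 CPM against 0 and 0.0272 CPM. These copies resemble each other closely, and how reads were shared among them is uncertain.

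The other largest rises were spread over functions. Plac8, a small cysteine-rich protein, had 13.1 and 9.87 CPM in DKO and 2.08 and 1.82 CPM in Tet2-/- (log2 fold change 2.56, SE 0.28, adjusted p = 0.00144). Rec114, which helps to form the DNA breaks of meiosis, stood at 6.97 and 12.8 against 1.96 and 1.55 CPM (log2 fold change 2.5, SE 0.33, adjusted p = 0.00201). Arl14epl (59.6 and 88.9 against 13.8 and 8.54 CPM), the long noncoding RNA Lincenc1 (233 and 307 against 61.4 and 41.4 CPM), the phospholipase Pla2g1b (10.6 and 27.7 against 4.49 and 0.734 CPM) and the scavenger receptor Colec12 (5.88 and 4.68 against 1.08 and 1.06 CPM) had log2 fold changes of 2.74, 2.4, 2.94 and 2.3. The calls of Pla2g1b and Lincenc1 were lost without any 1 of the 4 libraries (adjusted p up to 0.216 and 0.0957).

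No core factor of pluripotency was called. Of 13 tested genes of the core list 0 were called, with 4 past the adjusted p at a smaller change. Of all 14456 genes, 2833 passed it at any change. Pou5f1 (Oct4) had 693 and 677 CPM in DKO and 731 and 742 CPM in Tet2-/- (log2 fold change -0.10, SE 0.13, adjusted p = 0.577), and for Nanog the values were 656 and 609.7 and 589.5 and 635 CPM (log2 fold change 0.05, SE 0.10, adjusted p = 0.755). In the naive list 1 of 15 tested genes was called, near the 6.36% of all genes. Zfp42 (Rex1), a zinc finger marker of naive ESCs, was higher in DKO with 1099 and 946 CPM against 463 and 435 CPM, a log2 fold change of 1.19 (SE 0.17, adjusted p = 0.00262). In the other direction, Tfcp2l1 (579 and 531 against 1031 and 1035 CPM) and Tcl1 (71.6 and 76.6 against 139 and 147 CPM) were lower by less than 2-fold, with adjusted p of 0.0195 and 0.00339. In the formative and primed list, 3 of 14 were called higher (3.2% of all genes were): Sall2, a zinc finger factor, with 27.3 and 28.9 against 6.34 and 6.01 CPM (log2 fold change 2.19, SE 0.26, adjusted p = 0.00144), Krt18, a keratin of simple epithelia, at 1.03, and Lef1, a factor of Wnt signalling, at 2.04 from no more than 3.01 CPM. The epiblast markers Otx2 (52.1 and 48.4 against 53 and 36.9 CPM) and Dnmt3b (188 and 222 against 172 and 168 CPM) did not pass the test.

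Part of the genes of glucose use were lower in DKO. Of 21 tested genes of glycolysis and glucose transport, 8 were called lower (3.16% of all genes tested were) and 0 higher. At any fold, 12 passed the adjusted p in that direction (1457 of all 14456 genes did), and the median log2 fold change was -0.91. Slc16a3, which exports lactate, had 32.4 and 33.5 CPM in DKO and 228 and 112 CPM in Tet2-/-, and its log2 fold change was -2.36 (SE 0.56, adjusted p = 0.0165). Both DKO clones were alike, whereas Tet2-/- replicate 1 was well above replicate 2. Tpi1, triosephosphate isomerase, stood at 235 and 286 against 1102 and 718 CPM (log2 fold change -1.80, SE 0.37, adjusted p = 0.0103), and Slc2a3, a glucose transporter, at 975 and 987 against 2356 and 1955 CPM (-1.14, SE 0.16, adjusted p = 0.00236). Pfkl, a phosphofructokinase, had 140.3 and 168 against 527 and 295 CPM, with a log2 fold change of -1.41 (SE 0.39, adjusted p = 0.0286).

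The transporter Slc2a1 (log2 fold change -1.12), the hexokinase Hk1 (-1.11), the aldolase Aldoc (-2.02) and the lactate dehydrogenase Ldhb (-1.58) completed the called members. Gapdh was lower by less than 2-fold, with 853 and 854 CPM in DKO and 1575 and 1549 CPM in Tet2-/- (log2 fold change -0.87, SE 0.11, adjusted p = 0.00151). Pfkm, the muscle-type phosphofructokinase (67.1 and 70.2 against 64.4 and 54.7 CPM) and Slc16a1, another lactate transporter (288 and 266 against 267 and 267 CPM) did not pass the test. Tpi1, Slc2a3 and Ldhb lie on chromosome 6, whose median level was raised in the Tet2-/- clones (values below). Without the members on chromosomes 6 and 8, 5 called members remained. Without Tet2-/- replicate 1 the count of called members fell to 1, and without either DKO replicate to 2, but without Tet2-/- replicate 2 it was 7.

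**Figure D3:**
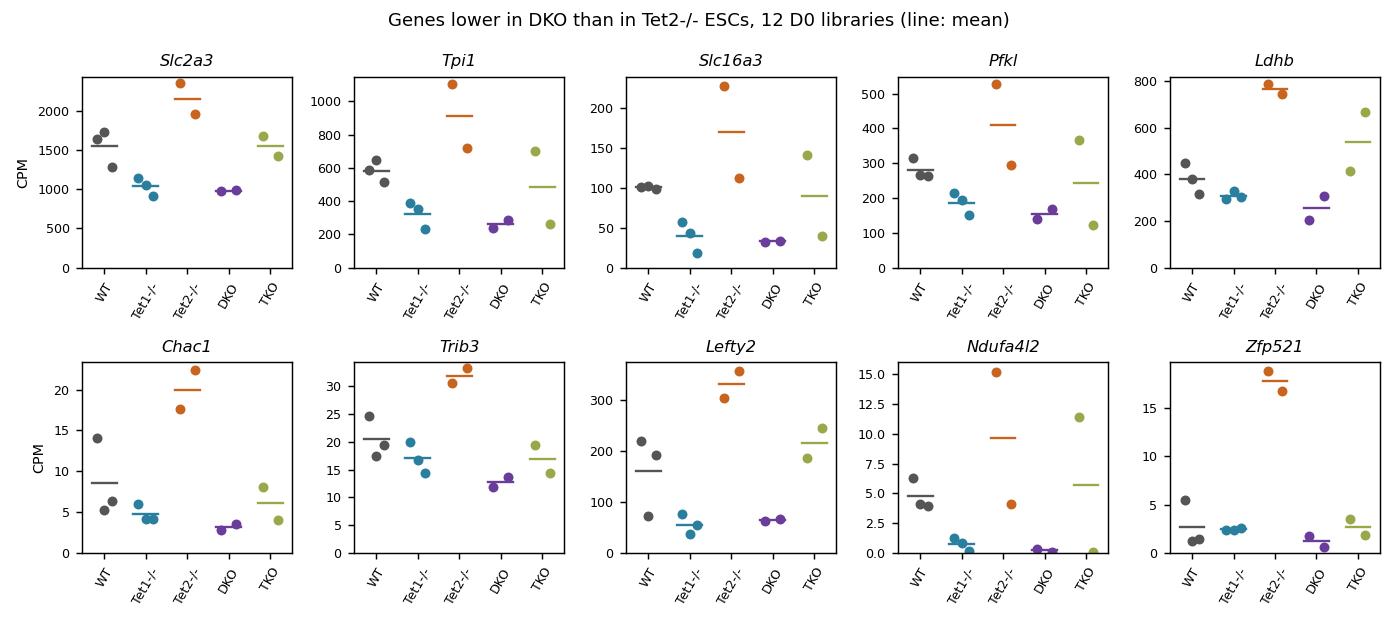
CPM of 10 genes that were called lower in DKO than in Tet2-/- (y axis, from 0) in the 12 D0 libraries, 1 point each, by genotype on the x axis, with a line at the mean. For Slc16a3, Tpi1 and Pfkl the 2 Tet2-/- points lie apart, and for Zfp521 the Tet2-/- clones (16.7 and 18.8 CPM) stand above all other libraries.

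Genes that respond to low oxygen were lower in part. Of 15 tested members 2 were called lower (3.16% of all genes were) and 0 higher, and the median log2 fold change was -0.73. Vegfa, a growth factor for blood vessels, had 15.0 and 14.7 CPM in DKO against 34.0 and 29.0 CPM in Tet2-/- (log2 fold change -1.09, SE 0.31, adjusted p = 0.0303), and Egln3, a prolyl hydroxylase, 10.5 and 7.60 against 36.4 and 17.1 CPM (-1.56, SE 0.46, adjusted p = 0.0356). The call of Vegfa was lost without any 1 of the 4 libraries (adjusted p up to 0.165), and that of Egln3 without any but Tet2-/- replicate 2 (up to 0.285). Bnip3 (5.55 and 5.0 against 39.4 and 13.9 CPM) had a larger difference, at a log2 fold change of -2.33, but did not pass the test (adjusted p = 0.0665). Outside the list, the largest fall among genes of at least 5 CPM in the higher group was that of Ndufa4l2, a mitochondrial protein known to respond to hypoxia, with 0.334 and 0.0927 against 15.2 and 4.1 CPM (log2 fold change -5.43, SE 1.52, adjusted p = 0.0295). DKO replicate 2 had only 2 counts of it, and its call was lost in 4 of 11 alternatives (log2 fold change -6.62 to -4.22). Bhlhe40, a transcriptional repressor, stood at 4.84 and 2.92 against 37.0 and 16.6 CPM (log2 fold change -2.77, SE 0.53, adjusted p = 0.00788). The call of Bhlhe40 was lost in 3 of 11 alternatives (log2 fold change -3.25 to -2.09).

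ACGTG, the core of the motif that hypoxia-inducible factors bind, was searched in the promoter windows on both strands. It lies inside CACGTG, so the searches overlap. It was present in 10 of 20 windows of the tested glycolysis genes and in 3 of the 7 of the called ones, against 25.5% over all genes tested. The window of Slc16a3, the most lowered member of that list, held 2 copies, shown in capitals.
Slc16a3 promoter (GRCm38.p6, chr11:120948817-120949116, plus strand): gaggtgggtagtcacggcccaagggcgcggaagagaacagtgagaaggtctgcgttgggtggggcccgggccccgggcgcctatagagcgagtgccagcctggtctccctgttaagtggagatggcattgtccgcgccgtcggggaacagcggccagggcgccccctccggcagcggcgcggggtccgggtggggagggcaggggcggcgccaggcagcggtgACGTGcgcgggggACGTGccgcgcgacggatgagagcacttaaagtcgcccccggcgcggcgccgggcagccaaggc

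Targets of ATF4, the factor that turns on amino acid supply under stress, were lower in part. Of 17 tested members 6 were called lower (against 3.16% of all genes tested) and 0 higher. At any fold, 11 were lower past the adjusted p (1457 of all 14456 genes were), and the median log2 fold change was -0.89. Chac1, which degrades glutathione, had 2.79 and 3.57 CPM in DKO and 17.6 and 22.3 CPM in Tet2-/-, a log2 fold change of -2.65 (SE 0.45, adjusted p = 0.00514). Trib3, a pseudokinase that restrains the same response, stood at 11.8 and 13.7 against 30.6 and 33.2 CPM (-1.32, SE 0.21, adjusted p = 0.00339). Slc7a5, an amino acid transporter of high abundance, had 306 and 305 against 614 and 631 CPM (-1.03, SE 0.21, adjusted p = 0.0106). The clones of each genotype were close for these 3 genes. Ddit4 (-1.55), Slc7a11 (-1.46) and Ddit3 (-1.28) were the other called members, Ddit4 with a wide spread between the Tet2-/- clones (95.9 and 50.3 CPM). Atf4 itself was lower by just under 2-fold (98.6 and 129 against 197 and 253 CPM, log2 fold change -0.98, SE 0.25, adjusted p = 0.0210). No member was called without DKO replicate 1, and 2 or 3 were called without any other library.

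TGATGNAA, part of the element that ATF4 and its partners bind, was found on either strand in 5 of 15 windows (33.3%) of the tested members and in 3 of the 5 of the called ones, against 2.2% over all genes tested. The windows of Chac1 and Trib3 are shown with the motif, here on the opposite strand, in capitals.
Chac1 promoter (GRCm38.p6, chr2:119350992-119351291, plus strand): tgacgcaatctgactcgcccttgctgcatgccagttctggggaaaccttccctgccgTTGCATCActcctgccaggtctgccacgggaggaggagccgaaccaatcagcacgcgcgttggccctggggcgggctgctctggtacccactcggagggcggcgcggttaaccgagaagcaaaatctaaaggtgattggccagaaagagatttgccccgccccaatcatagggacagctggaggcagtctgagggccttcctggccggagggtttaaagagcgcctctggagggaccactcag
Trib3 promoter (GRCm38.p6, chr2:152344011-152344310, minus strand): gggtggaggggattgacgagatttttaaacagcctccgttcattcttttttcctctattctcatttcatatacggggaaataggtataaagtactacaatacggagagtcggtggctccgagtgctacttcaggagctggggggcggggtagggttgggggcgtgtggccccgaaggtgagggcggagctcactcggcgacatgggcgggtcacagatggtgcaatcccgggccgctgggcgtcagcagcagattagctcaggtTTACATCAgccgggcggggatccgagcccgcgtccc

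Sterol genes gave fewer calls. Of 18 tested genes of cholesterol synthesis, 1 was called lower, which is near the 3.16% of all genes, and 9 passed the adjusted p in that direction (1457 of all 14456 genes did), with a median log2 fold change of -0.42. Mvk, mevalonate kinase, had 18.6 and 22.6 CPM in DKO and 52.1 and 52.4 CPM in Tet2-/- (log2 fold change -1.34, SE 0.20, adjusted p = 0.00289).

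Both Lefty genes, secreted inhibitors of Nodal, were lower in DKO. Lefty2 had 62.4 and 65.9 CPM in DKO against 304 and 358 CPM in Tet2-/- (log2 fold change -2.37, SE 0.43, adjusted p = 0.00642), and Lefty1 13.9 and 8.90 against 56.3 and 52.7 CPM (-2.25, SE 0.58, adjusted p = 0.0216). They were the 2 called of 16 tested genes of Nodal and Lefty signalling, where 3.16% of all genes were called lower. The ligand Nodal itself (78.0 and 70.6 against 80.0 and 84.1 CPM) and its coreceptor gene Tdgf1 (718 and 644 against 651 and 611 CPM) did not pass the test, with log2 fold changes of -0.14 and 0.11. The call of Lefty1 was lost without any 1 of the 4 libraries (adjusted p up to 0.137).

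Among the other largest falls, Zfp521, a zinc finger regulator of progenitor cells, had 1.75 and 0.649 CPM in DKO and 18.8 and 16.7 CPM in Tet2-/- (log2 fold change -3.86, SE 0.63, adjusted p = 0.00422). Pltp, a phospholipid transfer protein, stood at 27.2 and 28.9 against 169 and 147 CPM (-2.5, SE 0.38, adjusted p = 0.00305). Cspg5 (5.67 and 5.10 against 25.7 and 26.6 CPM), a proteoglycan of neural tissue, Plxdc1 (3.84 and 5.47 against 25.9 and 20.4 CPM), Ubap1l (1.13 and 1.76 against 7.82 and 10 CPM) and Cpt1b (1.25 and 0.788 against 6.09 and 5.71 CPM), a carnitine transferase of fatty acid oxidation, had log2 fold changes of -2.28, -2.31, -2.63 and -2.52.

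Genes of DNA methylation showed small differences. Of 16 tested methyltransferases and readers 1 was called lower (near the 3.16% of all genes), the methyl-CpG reader Zbtb4 at no more than 1.64 CPM. Below 2-fold, Dnmt1, the maintenance methyltransferase, had 284 and 284 CPM in DKO against 408 and 397 CPM in Tet2-/- (log2 fold change -0.50, SE 0.15, adjusted p = 0.0354), and its partner Uhrf1 304 and 352 against 484 and 508 CPM (-0.59, SE 0.13, adjusted p = 0.0109). Dnmt3a and Dnmt3b did not pass the test. Of 21 tested Tet enzymes, partners and repair genes, 1 was called lower, again near that share: Idh2, a mitochondrial enzyme that makes alpha-ketoglutarate, the cosubstrate of Tet enzymes, with 70.2 and 82.1 against 176 and 163 CPM (-1.16, SE 0.25, adjusted p = 0.0122).

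Of 34 tested imprinted genes, 2 were called higher and 4 lower, against 3.2% and 3.16% of all genes. Peg10, a gene derived from a retrotransposon, had 202 and 192 CPM in DKO against 450.0 and 454 CPM in Tet2-/- (log2 fold change -1.20, SE 0.24, adjusted p = 0.00928), and Grb10, an adaptor that restrains growth signalling, 159.8 and 111 against 266 and 346 CPM (-1.18, SE 0.34, adjusted p = 0.0330). Peg3 (-1.43) and Sgce (-1.67) were lower too, and Plagl1 (1.06) and Mcts2 (1.35) higher. Peg10 and Sgce are neighbours on chromosome 6, and without chromosomes 6 and 8 the 4 lower calls were 2. With 1 library left out, 0 to 2 of the 4 were called, and 0 unless the library was Tet2-/- replicate 2.

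Adhesion and growth control genes gave scattered calls, to be read against the 3.2% of all genes called higher and the 3.16% called lower. Of 31 tested integrins and laminins 4 were called higher (Itgb3, Itgb4, Lama3, Lama4), led by Itgb3, a receptor for vitronectin, with 4.71 and 7.88 against 1.72 and 1.58 CPM (1.93, SE 0.32, adjusted p = 0.00447). With any 1 library left out, 1 of the 4 was called. Fn1, which encodes fibronectin, was lower at 847 and 1039 against 2168 and 1829 CPM (-1.08, SE 0.17, adjusted p = 0.00339), as was the claudin Cldn4 at 21.3 and 22.8 against 69.9 and 60.3 CPM (-1.56, SE 0.22, adjusted p = 0.00236), 1 of 9 tested claudins. Of 14 epithelial and mesenchymal genes 3 were higher (Esrp1, Ocln, Zeb2) and 1 lower (Fn1). Among 19 p53 targets, Ccng1 (471 and 488 against 232 and 234 CPM), Perp (72.8 and 52.1 against 23.1 and 27.5 CPM) and Plk2 (43.5 and 35.4 against 20.1 and 17.8 CPM) were higher and Gdf15 (2.04 and 2.22 against 8.42 and 9.17 CPM) was lower. The cell cycle inhibitor Cdkn1b (p27) was the 1 called of 19 cell cycle genes, at 17.4 and 18.1 against 63.4 and 59.2 CPM (-1.79, SE 0.34, adjusted p = 0.00804). It lies on chromosome 6.

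Signalling and lineage lists held from 0 to 4 calls each, where 6.36% of all genes tested were called. FGF signalling had 1 higher (Egr1, an early response factor of ERK signalling, 32.0 and 24.5 against 8.30 and 8.98 CPM) and 1 lower (Ier3) of 19. Wnt targets had 2 higher (Lef1, Rnf43) and 2 lower (Cdx1, Nkd1) of 13. Primitive streak and mesoderm had 1 of 11 (Kdr, the VEGF receptor, 5.92 and 9.59 against 1.32 and 1.99 CPM), primitive and visceral endoderm 1 of 16 (Pdgfra), neuroectoderm 1 of 8 (Sox21) and Hox genes 1 of 6 (Hoxd13), all higher. Trophectoderm had 1 higher (Krt18) and 1 lower (Tead4) of 11. Collagens had 2 in each direction of 25, keratins 2 higher and 1 lower of 12, endothelial and blood markers 1 higher (Runx1) of 6, and fibroblast markers 1 lower (Pdgfrb) of 6. Of 37 tested histone genes 4 were higher, all at low levels for polyadenylated RNA. No gene was called in the lists of LIF receptor and STAT3 (14 tested), BMP ligands and Id genes (16) and primordial germ cells (9). Clustered protocadherins (39) and ribosomal proteins (76) also had 0 calls. In this order, 1, 2, 0, 0 and 22 of their genes were higher past the adjusted p at a smaller change, and 4, 1, 2, 0 and 1 lower. Of all 14456 genes, 1376 were higher and 1457 lower at the adjusted p with any change. Among the ribosomal genes 59 were above 0 and 17 below.

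For most of the called genes, the genotypes outside the comparison lay nearer to DKO than to Tet2-/-. On a line from the Tet2-/- mean (0) to the DKO mean (1) in log2(CPM + 1), Tet1-/- had a median position of 0.840 over the 919 called genes and was nearer to DKO than to Tet2-/- for 827 of them (90.0%). WT had 0.624 (66.8% nearer to DKO) and TKO 0.622 (63.3%). Libraries of a genotype differed: the WT libraries had medians of 0.439, 0.755 and 0.656, and the TKO libraries 0.411 and 0.853, whereas the Tet1-/- libraries had 0.780, 0.870 and 0.878. As a result WT replicate 1 and TKO replicate 1 were nearer to Tet2-/- and all other libraries nearer to DKO by their medians.

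**Figure D4:**
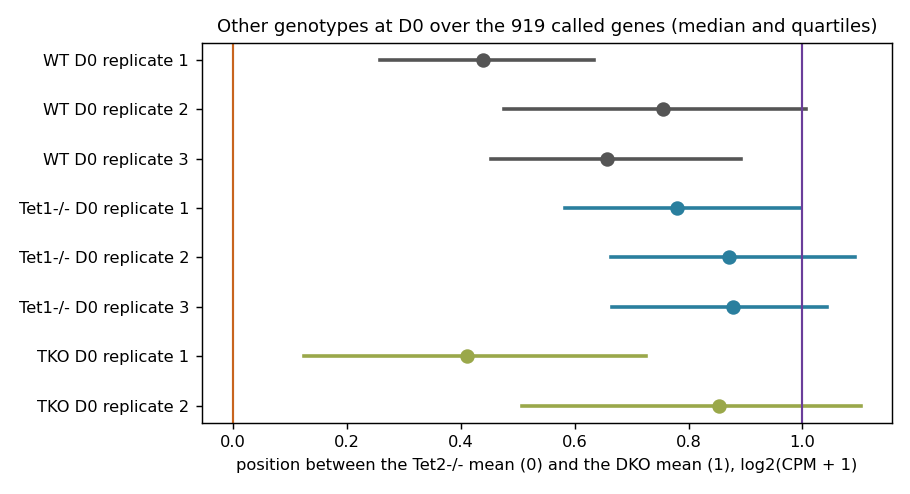
Position of the 8 D0 libraries of WT, Tet1-/- and TKO between the mean of Tet2-/- (0) and that of DKO (1) on the x axis, in log2(CPM + 1), over the 919 called genes, with points at the median and bars from the lower to the upper quartile. The 3 Tet1-/- medians lie between 0.780 and 0.878, and those of WT between 0.439 and 0.755.

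The gene groups differed in this respect. For the 11 called germline genes the median position was 0.839 in WT, 0.759 in Tet1-/- and 0.387 in TKO. Dazl, for example, had 17.9 ± 7.64 CPM (SD, n = 3) in WT and 17.4 ± 2.83 CPM (SD, n = 3) in Tet1-/-, near the DKO values, but 6.37 and 6.98 CPM in TKO. The 8 called 2-cell-like genes had 0.534 in WT, 0.507 in Tet1-/- and -0.05 in TKO, with 5, 4 and 0 of them nearer to DKO. They were kept and called through their high DKO values, so these positions do not rank DKO against the other genotypes. For the 8 called glycolysis genes WT stood at 0.355, Tet1-/- at 0.846 and TKO at 0.454, with 3 of the 8 nearer to DKO in TKO. Chromosome 6, where Tpi1, Slc2a3 and Ldhb lie, had a raised median in TKO replicate 2 (values below). Slc16a3 had 100.2 ± 2.11 CPM in WT, between the Tet2-/- and DKO values, and 39.2 ± 19.6 CPM in Tet1-/-, which overlaps DKO, but 140.3 and 38.9 CPM in the TKO libraries, which lay far apart. For the 6 called ATF4 targets WT stood at 0.534, Tet1-/- at 0.897 and TKO at 0.688. Zfp521, with 2.70 ± 2.39 CPM in WT and 2.47 ± 0.108 CPM in Tet1-/-, was high in Tet2-/- alone, and Sall2, with 9.07 ± 1.37 CPM in WT and 23.6 ± 1.24 CPM in Tet1-/-, was high in the genotypes that lack Tet1.

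Loss of Tet1 with Tet2 intact, Tet1-/- against WT, shares no library with DKO against Tet2-/-. In the same fit 0 genes were called higher and 1 lower (0.00692% of 14456), and 1828 genes had an unadjusted p under 0.05, while DESeq2 called 32 and 20. The called gene was the cohesin gene Smc1b, at 5.27 ± 1.74 CPM in WT and 1.23 ± 0.241 CPM in Tet1-/- (SD, n = 3 each), a log2 fold change of -2.10 (SE 0.27, adjusted p = 0.0290), opposite in sign to its change between DKO and Tet2-/-. Of the 457 genes called lower in DKO, 86.0% were also below 0 in Tet1-/- against WT, compared with 49.5% of all genes tested. Of the 462 called higher, 68.0% were above 0, compared with 50.5% of all. Over the 14456 genes, which do not vary independently, the log2 fold changes of both comparisons had Pearson's r = 0.250. Lefty2 fell in DKO and had 219.6, 73.3 and 192 CPM in the WT and 76.6, 36.9 and 53.9 CPM in the Tet1-/- libraries, a log2 fold change of -1.53 (SE 0.34, adjusted p = 0.113) that did not pass the test. For Sall2 the same log2 fold change was 1.38 (SE 0.21, adjusted p = 0.0673), and for Dazl it was -0.04 (SE 0.26, adjusted p = 0.968).

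The difference of these Tet1 effects was tested directly. In 44 genes the effect was more positive and in 16 more negative when Tet2 was absent (0.304% and 0.111% of 14456, together 0.415%), and 3041 genes had an unadjusted p under 0.05. This count was unstable, with 1 to 183 genes on leaving out 1 library and 606 without the 2 TKO libraries. The largest positive differences were in Xlr4a, Uty, Xlr3a and Ddx3y, which are X-linked or Y-linked and at 0 or a few counts in some libraries, so that their size depends on the prior count. Of the called germline genes 2 of 11 passed this test, and of the called 2-cell-like genes 3 of 8. The contrast contains the comparison that chose these genes, so nothing is read from these counts. Among the positive differences were Dazl at 2.43 (SE 0.43, adjusted p = 0.0338) on the log2 scale, Smc1b at 3.21, Zscan4a at 3.72 and, outside both lists, Rec114 at 3.41 and Plac8 at 3.19, which were named after their values were seen. Among the negative differences were those of the adhesion receptor gene Gpr133, with 3.92 and 3.89 CPM in DKO against 17.6 and 19.6 CPM in Tet2-/- and 7.88, 6.20 and 5.77 against 8.72, 7.12 and 6.39 CPM in Tet1-/- and WT, and of the transcription factor gene Cdx1. Of the 8 called glycolysis genes, the 6 ATF4 targets and both Lefty genes, 0 passed this test.

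The same clones were also compared after 6 days without LIF, and D6 values below follow the clone order of D0. At D6, DKO against Tet2-/- gave 983 genes called higher (6.37% of 15435) and 483 lower (3.13%), together 9.5%. This count changed strongly on leaving out 1 library (values in the last section), so the shares called again rest on an unstable count. Of the 438 genes called higher at D0 that were tested at D6, 87.0% were above 0 and 146 (33.3%) were called higher again, compared with 5.46% of all genes tested on both days. Of 452 called lower, 76.1% were below 0 and 94 (20.8%) were called lower again, compared with 3.33%. The clones were the same on both days, so D6 is no independent test of the genotype. The 11 germline genes had a median log2 fold change of 1.06 at D6 with 2 called higher (Mael and Sycp2), and the 4 integrin and laminin genes were all called again. Of the 8 glycolysis genes, 8 were below 0 and 0 were called, with a median of -0.49.

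In the test of the difference between days, 490 genes had a more positive change at D6 (3.13% of 15639) and 242 a more negative one (1.55%), together 4.68%. Krt19, a keratin of simple epithelia, was called lower in DKO at D0 (1.38 and 1.76 against 7.06 and 2.80 CPM) and had 95.5 and 79.6 against 12.1 and 10.2 CPM at D6, a difference of 4.58 (SE 0.82, adjusted p = 0.00466) on the log2 scale. Gbx2, a homeobox gene of naive ESCs, was higher by less than 2-fold in DKO at D0 (103 and 85.6 against 45.5 and 60.8 CPM, adjusted p = 0.0123) and had 2.97 and 1.42 against 14.7 and 16.3 CPM at D6, with a difference of -3.67 (SE 0.47, adjusted p = 0.00112). Inhbb, a subunit of activin B, did not pass the test at D0 (141 and 136 against 115 and 134 CPM) and had 0.700 and 0.492 against 5.97 and 8.31 CPM at D6, a difference of -3.75 (SE 0.44, adjusted p = 0.00112). Serpinb6b and Fgf10 had more positive changes at D6 (4.28 and 3.88), and Bcl11a a more negative one (-3.85). With the clone as a block, Fgf10 was no longer called (adjusted p = 0.0521).

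The median levels of some chromosomes were shifted between the clones. Chromosome 6 had a median log2 fold change of -0.26 over 602 genes and chromosome 8 of -0.22 over 702, and 7.97% and 6.84% of their genes were called lower, against 3.16% of all. Relative to the WT mean and to all autosomes, the Tet2-/- libraries stood at 0.13 and 0.14 (log2) on chromosome 6 and at 0.23 and 0.25 on chromosome 8. The DKO libraries stood at -0.09 and -0.04 on chromosome 6 and at 0.12 and -0.02 on chromosome 8, and DKO replicate 2 was at 0.11 on chromosome 11. Such shifts were not particular to these clones. The TKO libraries stood at 0.05 and 0.37 on chromosome 6 and at 0.22 and 0.18 on chromosome 8. TKO replicate 2 was at 0.35 on chromosome 11, and Tet1-/- replicate 2 at -0.17 on chromosome 8. These shifts are smaller than the 2-fold limit of a call, which does not tell whether they carried genes past that limit. Without chromosomes 6, 8, X and Y, 395 genes were called higher and 352 lower. The part of these shifts in single results was not tested.

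**Figure D5:**
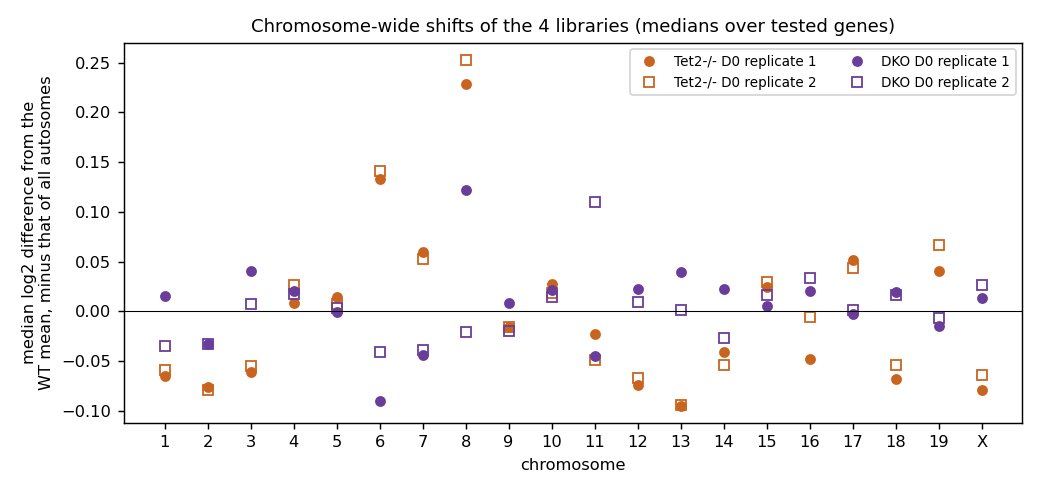
Median over the tested genes of each chromosome (x axis) of the log2 difference between a library and the WT mean, minus the same median over all autosomes (y axis), for the 2 Tet2-/- libraries (orange) and the 2 DKO libraries (purple). Both Tet2-/- points are the highest of the 4 on chromosomes 6 and 8, at up to 0.25.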

How the data were processed

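Poly(A) RNA of 24 mouse ESC libraries, each from 1 clone, had been sequenced as paired ends. Per the labels and methods, the authors aligned reads with STAR 2.5.1 to mm9 and deposited raw counts per gene symbol, 1 table for each day. The paper's methods do not name the counting tool. The deposited records name HTSeq in one place and featureCounts in another, and whether strand was used is not given. Spike-in RNA was added, but 0 lines of the tables name it. Where a symbol had more than 1 line (4911 of 22926), its first line was kept.

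From these counts, genes with at least 10 counts in enough libraries (edgeR's filterByExpr) were tested with edgeR 4.0.16 in R 4.3.3 (TMM scaling, 5 genotypes in 1 quasi-likelihood fit for each day, p adjusted by Benjamini-Hochberg). A call needed an adjusted p under 0.05 and a change over 2-fold. The effect of Tet1 loss in Tet2-deficient cells minus that in Tet2-intact cells was a contrast in the D0 fit, and the difference between days a contrast over both days. CPM are TMM-scaled, without a prior count. The p-values measure the spread between clones. With 2 clones a group, an exact permutation test on single genes could not pass 0.05 and was not used.

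Named genes were the Tet genes, called members of the lists, and the 12 largest rises and falls among called genes with at least 5 CPM in the higher group and no overlap, leaving out gene models, and the 3 largest in each direction for each difference of effects. Uncalled list members were named after their values were seen. The comparison, members and lists were chosen with earlier results of these data known, and the Y-linked and Xlr groups after seeing values. Alternatives were TMM against library totals, no count filter, DESeq2 1.42.0, other sets of libraries, a replicate block, the fullest line per symbol, and each library left out. Leaving out chromosomes 6, 8, X and Y, and the leave-one-out counts of lists, were added after seeing the data. Leaving out 1 library leaves 1 clone in its group, which is then assumed to vary like the other groups. Labels give the same clone names on both days for 11 clones (22 libraries), which served as a block for the day difference. The D6 name of 1 DKO clone is written without its point and was read as the D0 name, which is an assumption. Promoters came from RefSeq (GRCm38.p6) by symbol. The code was tested on simulated counts. Results for a few named genes, and the list result that rests on one of them, are not reported here.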

Additional observations from a re-analysis of the deposited data

Results flagged for a closer look

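The difference between the effects of Tet1 loss in Tet2-deficient and in Tet2-intact cells at D0 passed edgeR's test in 60 genes, 44 in the positive and 16 in the negative direction. The 3 positive differences named by the rule for genes (log2 scale) were 10.90 in Uty (SE 2.04, adjusted p = 0.0426), 9.55 (SE 1.80, adjusted p = 0.0426) in Ddx3y and 6.57 (SE 1.23, adjusted p = 0.0426) in Eif2s3y, all Y-linked. For Uty the WT libraries had 1.61, 42.5 and 6.31 CPM and the Tet1-/- libraries 0.261, 0.342 and 1.07 CPM, and the DKO libraries 2.34 and 6.53 CPM against 0.120 and 0.0272 CPM in Tet2-/-, so WT replicate 2 was far above all other libraries. The 3 differences passed the test without WT replicate 1 and without WT replicate 2 (8.81, 7.52 and 5.23 without the latter), but did not pass it without any other library of the 4 genotypes (adjusted p up to 0.239). Negative ones named by the same rule were -2.09 (SE 0.36, adjusted p = 0.0338) in Gpr133 and -1.73 (SE 0.34, adjusted p = 0.0485) in Cdx1. In Cdx1 the DKO libraries had 2.29 and 2.87 CPM, Tet2-/- 8.50 and 11, Tet1-/- 4.26, 3.88 and 4.21 and WT 5.01, 4.42 and 4.63 CPM. Without 1 library, both calls were kept without WT replicate 1 and lost in all other cases (adjusted p up to 0.178 and 0.239).

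The difference between D6 and D0 of the change from Tet2-/- to DKO passed the test in 732 genes. On the log2 scale it was 4.58 in Krt19, 4.28 (SE 1.14, adjusted p = 0.0315) in Serpinb6b, 3.88 (SE 1.17, adjusted p = 0.0481) in Fgf10, -3.85 (SE 0.94, adjusted p = 0.0209) in Bcl11a, -3.75 in Inhbb and -3.67 in Gbx2. Serpinb6b had 4.69 and 7.75 CPM in DKO and 0.212 and 0.329 CPM in Tet2-/- at D6, and at most 0.556 CPM in the 4 libraries at D0. Fgf10, a fibroblast growth factor, had 4.30 and 5.98 against 7.34 and 7.24 CPM at D0 and 17.0 and 10.1 against 1.88 and 0.659 CPM at D6. Bcl11a, a zinc finger repressor, had 0.459 and 0.510 against 0.0802 and 0.163 CPM at D0 and 1.71 and 1.74 against 7.48 and 5.93 CPM at D6. With other settings or 1 library left out, the calls of Krt19, Inhbb and Gbx2 were kept under all 12 alternatives, and those of Serpinb6b, Fgf10 and Bcl11a were lost under 7, 9 and 8 of 12.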

How the results depend on the processing

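For DKO against Tet2-/- at D0, the 919 calls became 917 with library totals in place of TMM, 991 without the count filter, 926 in DESeq2, 1223 without the TKO libraries, 1195 with only the 4 libraries compared, 940 with the fullest line per symbol and 2833 without the fold limit. With 1 library left out the count was 145 to 333. Without chromosomes 6, 8, X and Y it was 747. Tet1-/- against WT gave 29 calls without the count filter, 52 in DESeq2, 110 without TKO and 0 to 9 with 1 library left out. The difference of the Tet1 effects gave 182, 279 and 606 under the same 3 changes, 43 without the 4 chromosomes and 1 to 183 with 1 library left out (183 without WT replicate 1 and 1 without Tet2-/- replicate 2). D6 gave 2454 with only its 4 libraries and 28 to 584 with 1 library left out, and the difference between days 147 to 455. The cause of these changes was not tested.

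Among the lists, with 1 library left out, called members were 3 to 7 (germline), 4 to 7 (2-cell-like), 1 to 7 (glycolysis), 0 to 3 (ATF4 targets), 0 to 2 (imprinted, lower), 1 (integrins and laminins) and 0 to 1 (histones). Without chromosomes 6 and 8, glycolysis had 5, imprinted genes 2, ATF4 targets 5 and germline genes 10. Over genes of at least 10 CPM, the median log2 fold change was -0.34 on chromosome 6 and 0.052 on the X chromosome. Median positions of WT, Tet1-/- and TKO ranged over 0.575 to 0.662, 0.806 to 0.865 and 0.582 to 0.656 with 1 library left out.

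Replicate numbers only name clones, and same-numbered clones did not deviate together (the difference of replicate 1 from replicate 2 in DKO had a correlation over genes with that in Tet2-/- of -0.0448 at D0 and 0.0724 at D6). A block by replicate number gave 952 calls at D0, 1 for Tet1-/- against WT, 56 for the difference of Tet1 effects and 1290 at D6. It ended the calls of Pla2g1b, Rnf43, Col6a4 and Krt4, and of Ddx3y, Eif2s3y and Cdx1 in the difference of effects. The clone block gave 957 calls for the difference between days and ended no named call except that of Fgf10. Rnf43 was also lost without the filter and in DESeq2, Krt4 in DESeq2, Hist1h2ah without the filter and in DESeq2, Pdgfrb with only the 4 libraries, and Cdx1 in the difference of effects with library totals. No named log2 fold change turned its sign under any alternative run. Called genes have no overlap of the compared groups, so their signs could hardly turn and nothing is read from this. Of the values of named genes, 1060 kept their side of the threshold, 362 lost the call and 1 gained it. For the 2-cell-like, Y-linked and Xlr genes the few counts in Tet2-/- limit the precision.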
